A study of Mus musculus with 18 samples.

Results

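The respiratory chain subunit genes were the nuclear genes that encode subunits of complexes I to V of the mitochondrial inner membrane, or their close paralogues, chosen by their symbols in the array annotation (Nduf, Sdh, Uqcr, Cox4 to Cox8 and Atp5). The symbols matched 77 of the 17903 genes on the array: 33 of complex I, 4 of complex II, 8 of complex III, 17 of complex IV and 15 of complex V. Where a gene had several probe sets, the one with the highest average signal stood for it.

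Expression was measured on 18 mouse Affymetrix arrays, 1 per sample, during reprogramming to induced pluripotent stem cells (iPSC). The iPSC clones were 2 Tcf3 ko clones and 1 Tcf3 wt clone made with OSK (Oct4, Sox2 and Klf4), and 2 Tcf3 ko clones made with OCK (Oct4, c-Myc and Klf4). A partial OCK iPSC clone, a line that had not completed reprogramming, was analysed 2 days after treatment with either of 2 Tcf3 siRNAs (siTcf3-A and siTcf3-B, 1 array each) or a control siRNA (siCtrl, 1 array). OCK reprogramming cultures of Tcf3 ko and Tcf3 wt cells were sampled on days 11, 15, 19, 22 and 26 after the start, with 1 array per genotype and day. Tcf3, now called Tcf7l1, is a transcription factor at the end of the Wnt pathway that holds down pluripotency genes. All arrays other than those of the OSK clones came from cells given OCK. The partial clone is 1 clone, the OSK wt line is 1 clone, and the labels do not say whether the days of a time course came from the same or from separate cultures, so p-values measure only the spread between these arrays.

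Complex I takes electrons from NADH and complex II takes them from succinate. Complex III passes them from ubiquinol to cytochrome c, complex IV passes them on to oxygen, and complex V uses the proton gradient that results to make ATP. Pluripotent stem cells are known for their strong reliance on glycolysis, while they keep a working respiratory chain. Several subunits of complex IV have paralogues that are used in different tissues, such as heart and skeletal muscle or testis. The subunits encoded by mitochondrial DNA were not analysed here.

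Values were log2 signals with a floor of 5.64, the log2 of 50. Of the 77 genes, 69 were above the floor on all 18 arrays, 7 on some of them and 1, Ndufb4, on none. The 7 were Ndufa12, Uqcrq, Cox4i2, Cox7a1, Cox7b2, Cox7c and Cox8b. Another 7 probe sets matched the symbols but carried several of them, and were not used because their signal cannot be assigned to 1 gene.

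The labels were checked against Tcf7l1 and cell type markers. The log2 signal of Tcf7l1 was lower in the ko than in the wt culture on each of the 5 days, was 9.49 and 9.37 in the OSK ko clones against 10.68 in the OSK wt clone, and was 8.80 and 8.77 with siTcf3 against 9.93 with siCtrl. It was far above the floor in all ko samples, and the sources used here do not say which part of the gene is deleted. All 8 pluripotency markers were above the floor in the iPSC clones, where their summed linear signal was 56465 to 71917, against 10293 to 10719 in the partial clone and 1761 to 3168 in the cultures on days 11 and 15. The 9 fibroblast markers ran the other way, with summed signals of 6680 to 8756 in the iPSC clones, 15525 to 19130 in the partial clone and 111091 to 115263 in the early cultures. Adipocyte markers (7 of 8 above the floor, 13379 to 30615) and macrophage markers (7 of 7 above the floor, 2216 to 3971) were also present in the early cultures. Neuron and trophoblast markers had their highest sums in late cultures, at 8309 in the wt and 2644 in the ko culture of day 26. Cell type markers thus moved with reprogramming stage, and their part in the differences below was not tested. In bulk samples, fewer cells of a type and less RNA per cell cannot be told apart.

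The respiratory chain genes were steady across the 18 arrays. The range of a member, its highest minus its lowest log2 value, had a median of 0.69, and exceeded 1 in 12 of 77 members (15.6%). Among the 2593 genes of the array with a mean above 10, the level band of 64 of the members, the median range was 1.20 and 61.3% exceeded 1. The smallest ranges above the floor in each complex were 0.25 for Ndufs3 of the complex I core, 0.72 for the flavoprotein subunit Sdha of complex II, 0.42 for Uqcrb of complex III, 0.28 for the ubiquitous subunit Cox4i1 of complex IV (leaving aside Cox8b, which lay near the floor) and 0.26 for Atp5md of complex V. The largest ranges were 4.18 for Cox7a1, 3.37 for Cox6b2, 3.33 for Ndufa4l2, 2.26 for Atp5c1 and 1.90 for Cox7c. Of these, Cox7a1, Cox6b2 and Ndufa4l2 are paralogues of subunits that most cells use.

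**Figure D1:**
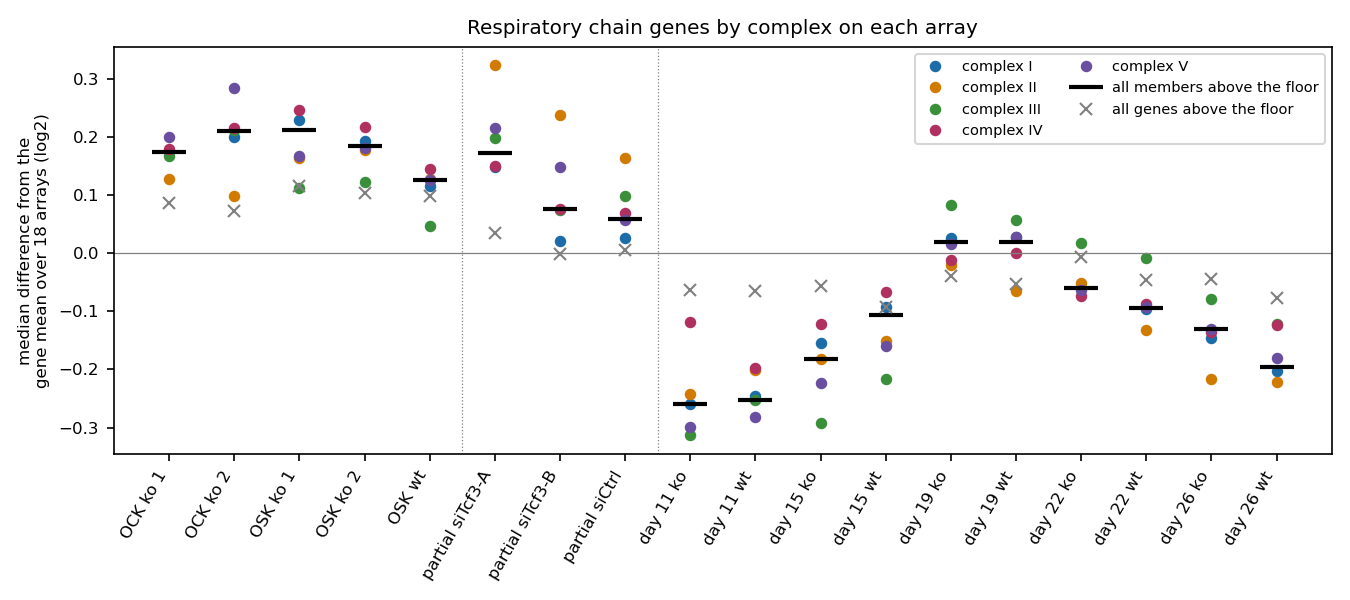
Median difference of the respiratory chain genes from each gene's own mean over 18 arrays (log2), for each array and complex (coloured points), for all 69 members above the floor on all arrays (black bars) and for all 10284 genes above the floor (crosses). The member medians lay between 0.13 and 0.21 in the 5 iPSC clones, between 0.06 and 0.17 in the partial clone and between -0.26 and 0.02 in the cultures, with the 2 highest culture values on day 19.

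In the iPSC clones most respiratory chain genes were higher than in the cultures on days 11 and 15. Of 76 members tested, 55 were higher and 2 lower at an adjusted p below 0.05 (limma, 5 against 4 arrays), while 41.8% of all 13814 genes tested were called higher and 33.6% lower. Of the 2593 genes with a mean above 10, 1360 were called higher and 841 lower. The median difference of the members was 0.41 on the log2 scale, a 1.33-fold higher level. The median of all genes tested was 0.08, and that of the genes with a mean above 10 was 0.24. Values of the iPSC clones lay wholly above those of the 4 early cultures for 53 of 76 members, a pattern that 37.4% of all genes tested showed, and wholly below for 3 members, against 30.5% of all genes. Set against all 10 cultures they lay wholly above for 36 members (25.7% of all genes) and wholly below for 2 (19.7%). After centring each array on its median, which shifted the median of all genes by -0.07, 49 members were higher and 6 lower, and the member median was 0.30. With that scaling 37.6% of all genes tested were called higher, and 50.2% of the calls over all genes were in the higher direction.

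In each of the 5 complexes more than 50% of the members tested were higher. Complex I had 24 members higher and 1 lower of 32 tested, with a median of 0.35. Complex II had 3 higher and 0 lower of 4 (median 0.35), complex III had 6 higher and 0 lower of 8 (median 0.49), complex IV had 10 higher and 1 lower of 17 (median 0.47) and complex V had 12 higher and 0 lower of 15 (median 0.47). No test of a difference between complexes was made.

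Among the core subunits of complex I, most of which carry the flavin or iron-sulfur clusters, 5 of the 6 on the array were higher. Ndufv2 had log2 signals of 12.77, 12.79, 12.76, 12.74 and 12.57 in the iPSC clones (OCK ko 1 and 2, OSK ko 1 and 2, OSK wt), against 11.86, 11.93, 11.90 and 12.04 in the early cultures (ko days 11 and 15, wt days 11 and 15). The lowest clone lay above the highest culture, and the difference was 0.79 ± 0.07 (SE; limma adjusted p = 9.16e-09). Ndufv1 and Ndufs1 were each 0.70 higher, Ndufs8 0.49 and Ndufs7 0.48 higher, while Ndufs3 differed by 0.10 ± 0.07, which did not pass. Of the accessory subunits, which surround the core, Ndufa6 and Ndufb8 were both 0.79 higher. For Ndufb8 this rested on the brighter of its 2 probe sets. The other had log2 signals of 5.64 to 6.35 in the iPSC clones against 7.39 to 7.57 in the early cultures, and the mean of both probe sets was lower by 0.35 in the clones.

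Ndufa8, an accessory subunit of complex I, was the member that fell most. Its log2 signals were 11.34, 11.36, 11.03, 10.94 and 11.03 in the iPSC clones (OCK ko 1 and 2, OSK ko 1 and 2, OSK wt), against 11.59, 11.56, 11.52 and 11.57 in the early cultures. All 5 clones lay below all 4 cultures, and the difference was -0.42 ± 0.08 (limma adjusted p = 0.000232). It was also lower than in the partial clone, by 0.74 on the log2 scale. The other member that fell was Cox6b1, the widely used form of a small subunit of complex IV, at -0.17 ± 0.05 (limma adjusted p = 0.00692).

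The bases before the transcription start of these 2 genes each held 1 motif of a factor family known for its sites in respiratory chain promoters, and are shown for that reason. The sequences are the 250 bases that end at the start in RefSeq's annotation (GRCm38.p6), read 5′ to 3′ towards the gene. For Ndufa8 (chr2:36049339-36049588, minus strand) the capitals mark GCATGCGC, the core of the site of nuclear respiratory factor 1 (NRF1), and for Cox6b1 (chr7:30626115-30626364, minus strand) they mark CTTCCGG, the reverse complement of the ETS-type letters CCGGAAG that the factor Gabpa binds.
Ndufa8: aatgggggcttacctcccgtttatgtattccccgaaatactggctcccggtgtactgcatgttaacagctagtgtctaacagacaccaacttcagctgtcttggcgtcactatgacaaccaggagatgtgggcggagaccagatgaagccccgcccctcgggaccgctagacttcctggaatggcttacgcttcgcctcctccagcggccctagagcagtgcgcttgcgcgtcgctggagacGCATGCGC
Cox6b1: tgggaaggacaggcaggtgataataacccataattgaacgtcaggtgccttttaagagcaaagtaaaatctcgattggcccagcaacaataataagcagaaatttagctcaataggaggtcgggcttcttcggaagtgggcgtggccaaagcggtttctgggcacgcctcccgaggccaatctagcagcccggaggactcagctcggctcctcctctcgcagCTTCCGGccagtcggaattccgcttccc

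In RefSeq's windows of 300 bases (250 before to 50 after a start), which covered 63 of the 77 members with 67 windows, both strands were searched for 4 motifs. The NRF1 letters GCATGCGC were in 9 member windows (13.4%) and in 2.71% of all 32851 windows, and CCGGAAG was in 16 (23.9%) and in 8.86%. AAGGTCA, the letters bound by estrogen-related receptors, was in 7 (10.4%) and in 4.72%, and TGACGTCA, the cAMP response element, was in 3 (4.48%) and in 1.79%. Windows could hold more than 1 motif: Atp5k and Atp5l, small subunits of complex V, each held the first 3. A match of letters is a description of the sequence, and binding was not measured.

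Of the other catalytic and core subunits (complex II, Uqcrfs1, Uqcrc1 and Uqcrc2 of complex III, and the alpha and beta subunits of complex V), 8 of 9 were higher and none was lower. Sdha, the flavoprotein of complex II, was 0.47 higher, Uqcrc1, a core protein of complex III, 0.67, and Uqcrfs1, the Rieske iron-sulfur protein, 0.51. Atp5a1, the alpha subunit of the catalytic head of complex V, had log2 signals of 13.34, 13.29, 13.37, 13.38 and 13.38 in the iPSC clones, against 12.47, 12.52, 12.59 and 12.61 in the early cultures. The groups did not overlap, the difference was 0.80 ± 0.07 and the beta subunit Atp5b was 0.75 ± 0.07 higher (limma adjusted p = 4.43e-09 and 1.80e-08). Sdhc, a membrane anchor of complex II, was the exception at -0.14 ± 0.08, which did not pass. It passed in the lower direction after quantile normalization (-0.24) and after median centring (-0.25).

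**Figure D2:**
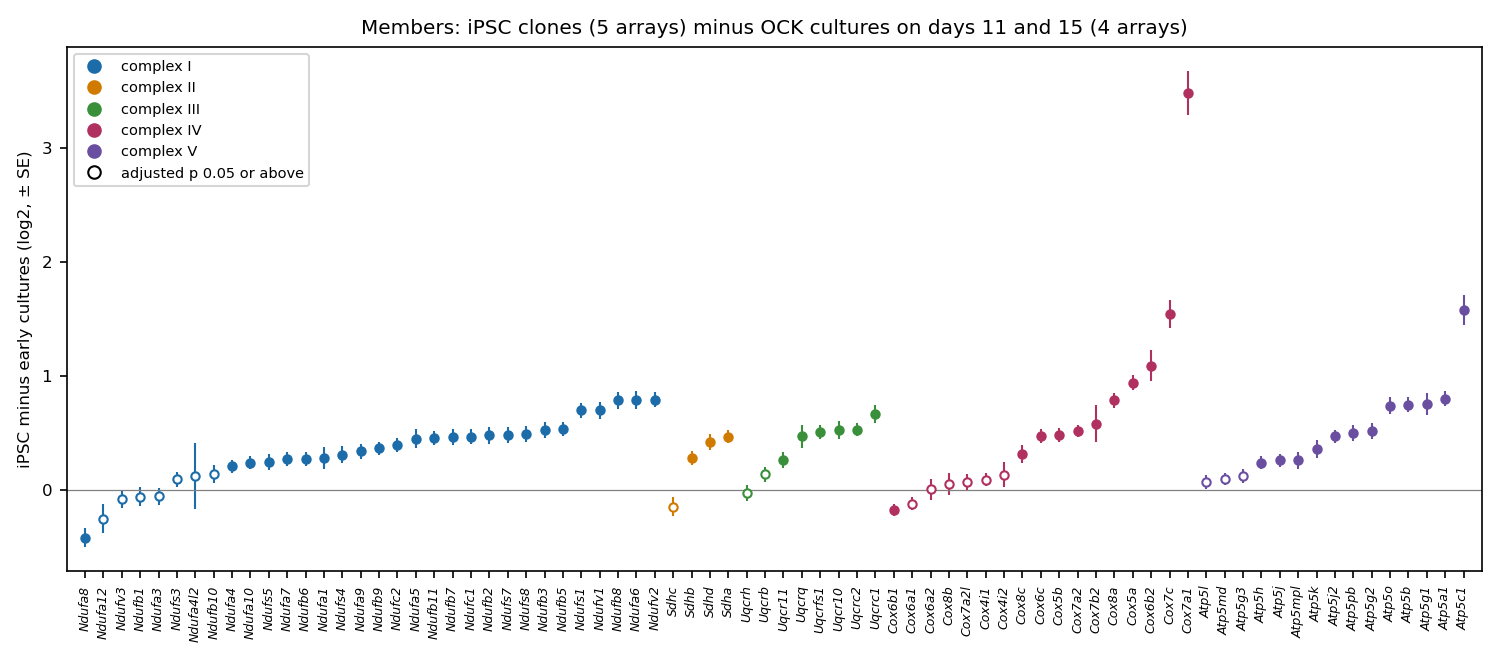
Difference of each of the 76 members tested between the iPSC clones (5 arrays) and the OCK cultures on days 11 and 15 (4 arrays), in log2 with its standard error, ordered within each complex. Filled points passed at an adjusted p below 0.05 (55 higher, 2 lower), and open points did not. Cox7a1 stands far above the other members at 3.48, a lower bound because its early cultures were at the floor.

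The largest difference of any member was that of Cox7a1, the heart and skeletal muscle form of subunit 7a of complex IV. Its log2 signals were 9.82, 9.14, 8.93, 8.99 and 8.75 in the iPSC clones (OCK ko 1 and 2, OSK ko 1 and 2, OSK wt), and it was at the floor in all 4 early cultures, an at least 11.2-fold higher level (limma adjusted p = 3.48e-11). In the partial clone it was at the floor with both Tcf3 siRNAs and at 6.15 with siCtrl. In the later cultures it rose above the floor on 3 arrays, with 5.71 and 6.47 in ko cultures on days 22 and 26 and 5.78 in the wt culture on day 22. Cox7a2, the form of the same subunit in most tissues, was 0.52 ± 0.06 higher in the clones than in the early cultures. Of 12 muscle markers, 6 were above the floor in the clones, with summed signals of 2570 to 5006 against 722 to 778 in the early cultures. The muscle myosins Myh1, Myh2, Myh4 and Myh7 and the muscle regulator Myog were at the floor on all 18 arrays.

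Against the partial clone the largest differences were those of Cox7a1, at 3.31 ± 0.21 with both siTcf3 arrays at the floor, and Cox6b2, the testis form of subunit 6b. The Cox6b2 log2 signals were 11.82, 10.96, 11.56, 11.52 and 11.20 in the iPSC clones, 8.58, 8.44 and 8.61 in the partial clone (siTcf3-A, siTcf3-B, siCtrl), and 10.04 to 10.44 in the early cultures. The 3 groups did not overlap, and the partial clone was the lowest of all samples. The clones were 2.87 ± 0.15 above the partial clone (limma adjusted p = 6.09e-11) and 1.09 ± 0.14 above the early cultures (limma adjusted p = 1.30e-06). Cox6b1, its widely used paralogue, ran the other way, with 12.81, 12.91, 12.89, 12.87 and 12.85 in the clones against 13.34, 13.25 and 13.18 in the partial clone.

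The promoters of Cox7a1 (chr7:30183921-30184170, plus strand) and Cox6b2 (chr7:4753095-4753344, minus strand), the 2 members with the widest ranges, held none of the 4 motifs in the bases before the start. They are printed for comparison with the 2 sequences above, taken from the same RefSeq table and in lower case throughout.
Cox7a1: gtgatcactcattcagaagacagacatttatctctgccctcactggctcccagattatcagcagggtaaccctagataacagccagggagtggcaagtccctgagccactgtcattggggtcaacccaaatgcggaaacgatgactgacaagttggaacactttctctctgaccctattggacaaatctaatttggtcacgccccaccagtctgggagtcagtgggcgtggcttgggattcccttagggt
Cox6b2: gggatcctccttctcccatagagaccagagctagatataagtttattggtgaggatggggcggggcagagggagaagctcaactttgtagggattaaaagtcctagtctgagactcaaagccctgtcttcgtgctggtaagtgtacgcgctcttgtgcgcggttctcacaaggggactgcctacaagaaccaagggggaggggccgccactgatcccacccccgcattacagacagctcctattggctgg

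Other testis forms linked to the chain, named after their values were seen, differed in how far they followed Cox6b2. Cyct, the testis form of the electron carrier cytochrome c, had log2 signals of 10.39, 10.01, 10.38, 10.51 and 10.05 in the clones, and was at the floor in the partial clone and in all cultures except the ko culture on day 26, at 7.22. The same array had the highest Cox7a1 signal of any culture, and the highest summed pluripotency markers of any culture, at 16807. Slc25a31, the testis form of the ADP/ATP carrier, was 6.88 to 8.31 in the clones and at the floor on the other 13 arrays, and Cox7b2 was close to the floor in the clones, at 5.65 to 6.90, and at the floor elsewhere, an at least 1.5-fold higher level. Cox8c, the testis form of subunit 8, was 0.31 ± 0.08 above the early cultures and differed from the partial clone by 0.03 ± 0.09, which did not pass (limma adjusted p = 0.00201 and 0.832). Of 6 germ-cell markers, 4 were above the floor in the clones (summed signals of 1943 to 5142) and 0 in the other samples, with Sycp1 and Tex101 at the floor throughout.

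**Figure D3:**
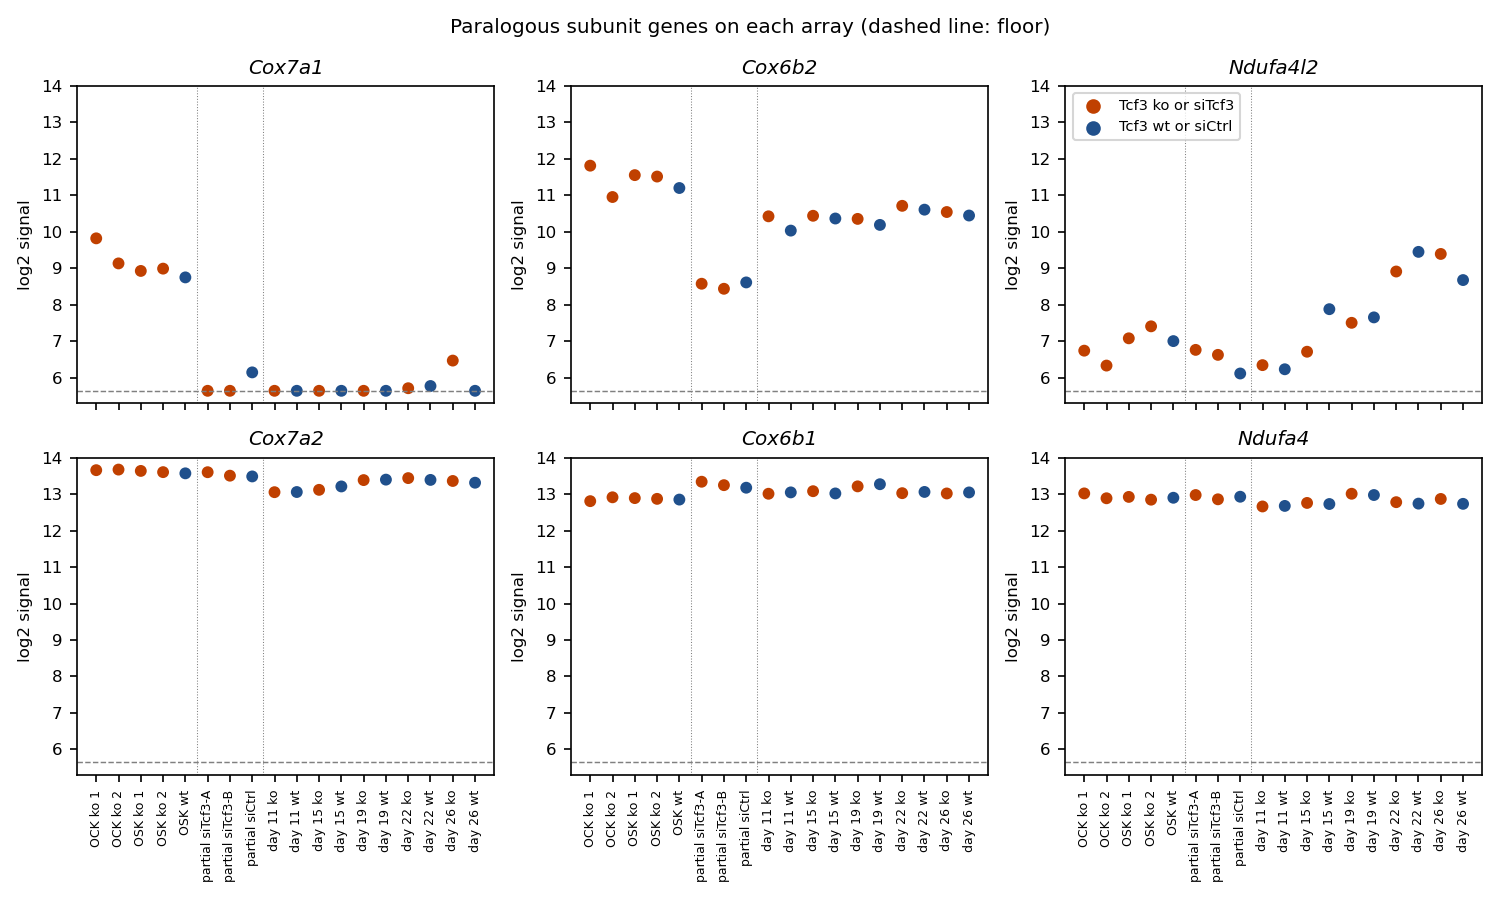
Log2 signal of 3 tissue-restricted or inducible paralogues (upper row) and of their widely used counterparts (lower row) on each array, with iPSC clones left, the partial clone in the middle and cultures right. Orange points are Tcf3 ko or siTcf3 samples, blue points Tcf3 wt or siCtrl samples, and the dashed line is the floor at 5.64. Signals of different probe sets are not on a common scale.

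For Cox7c of complex IV and Atp5c1, the gamma subunit of complex V, the signal was also much higher in the iPSC clones, each on a single dim probe set. Their mean log2 signals over 18 arrays were 6.16 and 6.96, while the median of the member means was 11.87. Whether these probe sets report the whole signal of each gene was not tested, so the values describe the probe sets and not the level of the subunits. Cox7c had log2 signals of 7.54, 7.06, 7.16, 6.95 and 7.21 in the clones and was at the floor in all 4 early cultures. Its signal was thus at least 2.91-fold higher (limma adjusted p = 3.36e-09). Atp5c1 had 8.28, 7.62, 8.19, 8.21 and 8.50 in the clones, against 6.71, 6.36, 6.73 and 6.53 in the early cultures, a difference of 1.58 ± 0.13. In both genes the clones lay wholly above the early cultures. The partial clone was at or near the floor for Cox7c, like the early cultures, at 5.64 to 5.69, and lay below them for Atp5c1, at 6.24 to 6.33. Cox5a, a subunit of complex IV that most tissues share, was 0.94 ± 0.07 higher in the clones.

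Other tissue-restricted forms did not pass. Cox6a2, the heart and skeletal muscle form of subunit 6a, differed by 0.01 ± 0.09 between the clones and the early cultures, and Cox4i2, the lung form of subunit 4, by 0.13 ± 0.11. Cox8b, the heart and skeletal muscle form of subunit 8, was at the floor in all 4 early cultures and at most 5.82 in the clones, so its difference was not measurable. The list of 18 paralogues, which holds restricted and widely used forms together, had 9 higher and 1 lower, against the 41.8% and 33.6% of all genes given above.

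The genes that serve the chain changed in a mixed way in the same comparison. Of all genes tested in it, 41.8% were called higher and 33.6% lower, and no list was tested against these shares. Of 73 genes of the mitochondrial ribosome, which translates the subunits encoded by mitochondrial DNA, 55 were higher and 4 lower (median 0.69), with Mrps5 2.03 and Mrpl1 1.93 higher. Of 38 assembly factors tested, 21 were higher and 10 lower: Nubpl, which delivers iron-sulfur clusters to complex I, was 1.65 higher, and Tmem70, an assembly factor of complex V, was 1.14 lower (log2 difference -1.14). Of 15 genes for cytochrome c, cytochrome c1 and ubiquinone synthesis, 9 were higher and 4 lower. Of 13 genes of the tricarboxylic acid cycle, 10 were higher and none was lower, and of 5 ADP/ATP and phosphate carriers and uncoupling proteins, 3 were higher and 1 lower. Of 16 regulators of mitochondrial biogenesis, 14 were higher and 1 was lower (median 1.13). Nrf1 had log2 signals of 9.53 to 9.74 in the clones against 6.75 to 7.12 in the early cultures, and Gabpa 11.23 to 11.49 against 10.10 to 10.29. Ppargc1a, a coactivator of these factors, was at the floor in the clones and in the early cultures alike, and its relative Ppargc1b was 2.06 higher. Of 40 genes of the cytosolic ribosome, a list added after the data were seen, 22 were higher and 3 lower (median 0.19).

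Between the iPSC clones and the partial clone the respiratory chain genes differed in both directions. Of 76 members, 26 were higher and 13 lower in the clones (limma adjusted p below 0.05, 5 against 3 arrays), while 35.8% of all genes tested were higher and 26.3% lower. The member median was 0.08, a 1.06-fold difference, and the median of all genes tested was 0.05. Values did not overlap for 24 members that were higher (33.1% of all genes) and 11 that were lower (24.5%). The balance depended on the scaling: 17 were higher and 17 lower after quantile normalization, and 16 were higher and 18 lower after median centring. Thus 66.7% (main fit), 50% (quantile) and 47.1% (centring) of the member calls were in the higher direction. Of the calls over all genes, 57.7%, 52.8% and 51.5% were in that direction, so all genes shifted the same way. Beside the genes above, Sdhc was 0.57 higher and Ndufb2 0.45 higher. Uqcrh, the hinge protein of complex III, was lower by 0.57 (log2 difference -0.57), Sdhb, the iron-sulfur subunit of complex II, by 0.42 (-0.42), and Ndufc2 and Atp5l by 0.39 and 0.36 (-0.39 and -0.36). Of the other genes of complex II, Sdhd was lower (-0.29) and Sdha was 0.19 higher, a call that was lost after quantile normalization (0.09) and median centring (0.11) and with the mean of its probe sets (-0.0014).

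The partial clone lay between the early cultures and the iPSC clones for 37 of the 69 members above the floor on all arrays, above both for 24 and below both for 8. How often all genes took these 3 positions was not counted, so the order is not shown to be particular to the members. Its 3 arrays were wholly above the 10 culture arrays for 28 of 75 members, against 17.4% of all genes compared, and wholly below them for 3, against 17.3%. The comparisons with the early cultures and with the partial clone share the iPSC arrays, so their values are given side by side and not as independent results.

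Over days 11 to 26 of the OCK cultures few members changed steadily. Of 75 tested, 4 rose and 1 fell per day (limma adjusted p below 0.05, mean of the ko and wt slopes, 10 arrays), against 18% and 18.7% of all 13428 genes tested. Ndufa4l2, a paralogue of Ndufa4 that is known to be induced in low oxygen, had the steepest slope. Its log2 signals were 6.35, 6.71, 7.51, 8.91 and 9.40 in the ko cultures on days 11, 15, 19, 22 and 26, and 6.23, 7.88, 7.66, 9.45 and 8.68 in the wt cultures. Both series were lowest on day 11 and highest on days 22 or 26, and the slope of 0.20 ± 0.03 per day amounts to 2.96 log2 units over the 15 days (limma adjusted p = 0.00501). The gene was back at 6.34 to 7.41 in the iPSC clones. Ndufa4 itself, now assigned to complex IV though its symbol groups it with complex I, stayed between 12.66 and 13.02 on all 18 arrays.

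The other 4 slopes were small. Over the 15 days they amounted to 0.47 for Ndufv2, 0.41 for Atp5a1, 0.40 for Uqcrfs1 and -0.42 for Cox6a2. Only the Ndufa4l2 slope passed when the 2 genotypes were averaged per day (limma adjusted p = 0.0418), and without day 11 it was 0.18 per day and no member passed (limma adjusted p = 0.0926 for Ndufa4l2). At an unadjusted p below 0.05 the full fit had 11 members (14.7%) and 6535 genes in all (48.7%). The member count ranged from 0 without day 11 to 11 without day 26, and was 10 after quantile normalization and 3 after median centring. Over all genes, 4921 were called in the main fit, 5038 after quantile normalization and 5151 after median centring. The counts without a day were not set beside the share of all genes.

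The most common course of these genes in the cultures was a higher level on day 19 than on the days around it. In both genotypes the day 19 value was above those of days 15 and 22 for 40 of 75 members, against 9.96% of all genes compared, and for 38 of the 64 members with a mean above 10, against 13% of all genes of that level. It was below both for 4 members (Sdhc, Cox6b2, Ndufs1 and Ndufs3), against 10.7% of all genes. This pattern was chosen after its values had been seen and rests on 1 array per genotype, so it is given as a description with no test. The counts above were 40 after quantile normalization and 36 after median centring. By complex, 19 of 32 members of complex I were highest on day 19 in this sense, 3 of 4 of complex II, 4 of 8 of complex III, 5 of 16 of complex IV and 9 of 15 of complex V.

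Ndufa5, an accessory subunit of complex I, showed it most. Its log2 signals on days 15, 19 and 22 were 10.34, 10.99 and 10.38 in the ko cultures and 10.40, 10.96 and 10.15 in the wt cultures, so day 19 was 0.63 (ko) and 0.68 (wt) above the mean of its neighbours. Cox8a, the widely used form of subunit 8 of complex IV, was 0.58 and 0.65 above them, Atp5l 0.49 and 0.56, and Uqcr10, a small subunit of complex III, 0.48 and 0.56. Sdhc was the clearest opposite case, at 10.49, 9.63 and 10.23 in the ko cultures and 10.51, 9.63 and 10.24 in the wt cultures on the same days. Over all members the median of day 19 minus its neighbours was 0.14, against 0.00 over all genes compared. Of 73 mitochondrial ribosome genes, 29 (39.7%) were higher on day 19 in both genotypes, as were 10 of 39 (25.6%) of the cytosolic ribosome. Summed fibroblast markers were 111091 to 115263 on days 11 and 15, 77547 to 78121 on day 19 and 58444 to 84030 on days 22 and 26, and their part in the day 19 levels was not tested.

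**Figure D4:**
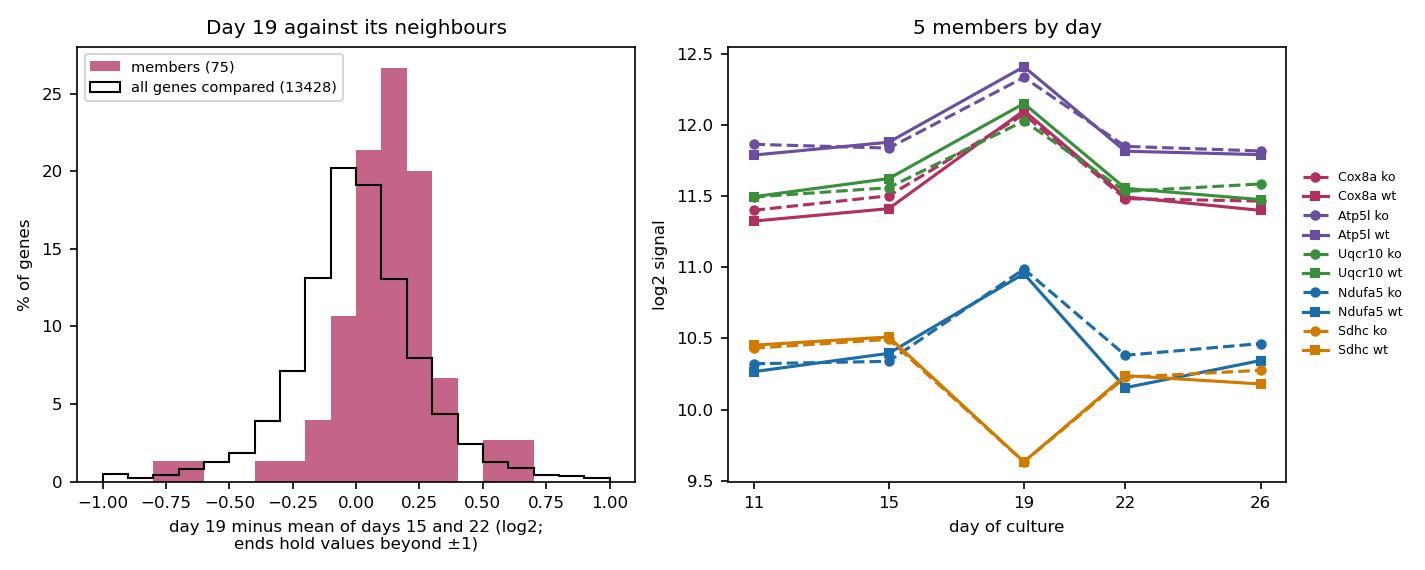
Left, distribution of day 19 minus the mean of days 15 and 22 (log2, mean of ko and wt cultures) for 75 members (filled) and all 13428 genes compared (line); the members centre on 0.14 and all genes on 0.00. Right, log2 signal by day of 4 members that were higher and 1, Sdhc, that was lower on day 19, with ko cultures dashed and wt cultures solid.

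No respiratory chain gene passed the test in any of the comparisons made between samples with and without Tcf3 loss. In the OCK cultures, 0 of 75 members passed between ko and wt with day as a block, as did 0% of all genes. At an unadjusted p below 0.05 there was 1 member, Cox6b2 (0.17 ± 0.07; limma adjusted p = 1.00), and 452 genes in all. The member median was 0.00 and the standard errors had a median of 0.06. The change per day differed between ko and wt cultures for 0 of 75 members and 0% of all genes (limma), with 0 members and 208 genes at an unadjusted p below 0.05. As fitted, without day as a block, this test had little power. In simulations with independent noise on each array, 1.6% of differences of log2 1 over the time course, and 41.4% of those of log2 2, were found. The power of a fit with day as a block was not simulated.

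Between the OSK ko and OSK wt clones 0 of 75 members passed in limma (2 arrays against 1, 0.687% of all genes called), and 2 members, Ndufa1 and Ndufa9, and 1623 genes had an unadjusted p below 0.05. Ndufa1, an accessory subunit encoded on the X chromosome, had the largest difference, at 12.79 and 12.60 in the OSK ko clones against 13.10 in the OSK wt clone, a difference of -0.40 ± 0.13 (limma adjusted p = 0.266). Ndufa9 differed by 0.27 ± 0.11 (limma adjusted p = 0.375). Of the 75 members, 53 were above 0, against 52.6% of all genes tested, with 24 of 31 in complex I and 7 of 15 in complex V. The member median was 0.05 against 0.01 over all genes tested. Both OSK ko clones were set against the same wt array, so a shared direction cannot be told apart from that array's own deviation.

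With Tcf3 siRNA in the partial clone 0 of 74 members passed in limma (2 arrays against 1, 0.111% of all genes called), and 2 members, Cox4i2 and Ndufa4l2, and 1602 genes had an unadjusted p below 0.05. The values leaned one way, with 62 of 74 members above 0 and a median of 0.07, against 49.5% above 0 and a median of -0.002 over all genes tested. After median centring these medians were 0.13 and 0.06. The lean came mainly from siTcf3-A, with which 64 of 69 members were above siCtrl (median 0.12), against 43 of 69 with siTcf3-B (median 0.03). All 15 complex V members were above 0, by 0.03 to 0.21. Since both siRNAs were set against the same control array, the shared direction cannot be told apart from that array's own deviation. Ndufa4l2 was 6.77 and 6.63 with siTcf3-A and siTcf3-B against 6.12 with siCtrl, a difference of 0.58 ± 0.21 (limma adjusted p = 0.352).

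**Figure D5:**
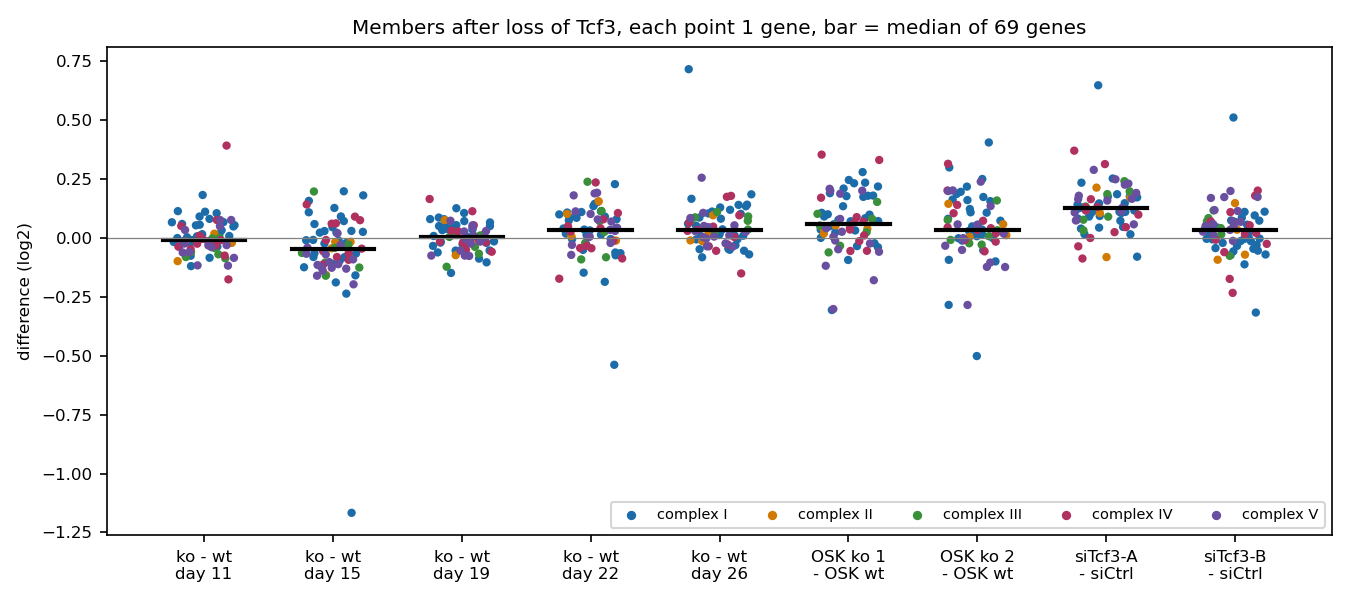
Differences of the 69 members above the floor on all arrays after loss of Tcf3 (log2; each point 1 gene, bar at the median): ko minus wt cultures by day, each OSK ko clone minus the OSK wt clone, and each Tcf3 siRNA minus siCtrl. The medians lay between -0.05 and 0.12, with the highest for siTcf3-A; the point at -1.17 on day 15 is Ndufa4l2.

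Between the OCK ko and OSK ko iPSC clones, which differ in the reprogramming factors, 0 of 76 members passed in limma (2 against 2 arrays), while 10.7% of all 12905 genes tested were called, 4.87% higher and 5.8% lower. At an unadjusted p below 0.05 there were 8 members and 3690 genes. The smallest adjusted p, 0.0521, was that of Ndufa1, at 13.12 and 13.15 in the OCK ko clones against 12.79 and 12.60 in the OSK ko clones (difference 0.44 ± 0.11). Ndufa8 was 11.34 and 11.36 against 11.03 and 10.94 (0.37 ± 0.09; limma adjusted p = 0.0540), and Ndufa4l2 was 6.74 and 6.34 against 7.08 and 7.41 (-0.71 ± 0.18; limma adjusted p = 0.0566). The clones of either kind did not overlap in these 3 genes, but the share of all genes that did so was not counted. The call was close to the threshold: 2 members, Ndufa1 and Ndufa8, passed after median centring. That count was not set beside the share of all genes called after centring, which was 10.7% in the main fit.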

How the data were processed

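Expression was measured in 18 mouse samples on Affymetrix arrays. The deposited value table holds log2 values that the authors made with RMA, per the submitters' processing notes (RMA settings: not given in the sources used here). The deposited log2 values share a floor of 5.64 (log2 of 50), which held 44.9% to 46.6% of the values of each array; a value there is an upper limit. Groups, days and clone numbers came from the labels. Of 40508 probe sets, 31076 had 1 gene symbol in the platform annotation, 636 had several and 8796 had none, and only the first were used; all 77 members were found in RefSeq's gene table (GRCm38.p6), with 0 symbols changed.

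Tests used limma 3.58.1 in R 4.3.3 with Benjamini-Hochberg adjustment over all genes tested and a threshold of 0.05. limma's prior variance was estimated without genes that touched the floor in a fit. Genes that did were given no smaller variance than this prior, and a gene was tested if at least 1 compared array exceeded the floor. The stage comparisons pooled genotypes and factor sets in 1 fit of 18 arrays; the culture comparison of ko and wt used day as a block, since both genotypes were sampled on each labelled day (deviations of same-day arrays correlated at 0.64 to 0.93 over genes). The clone comparisons used 1 fit of 8 arrays, which takes the single OSK wt and siCtrl arrays to vary as much as the groups of 2 do. In 5 simulations per comparison, 95.2% (clones against early cultures), 93.6% (clones against partial clone), 54.0% (change over the time course), 95.2% (ko against wt cultures), 56.8% (OSK ko against wt), 55.4% (siRNA) and 74.8% (OCK against OSK) of differences of log2 1 were found. The simulated noise was independent between arrays. The slope fits had no day block, although the ko and wt arrays of a day deviated together, so the share for the time course may not hold for these data. Members, gene lists and comparisons were chosen with earlier results of these data known. In each comparison the named members were up to 25 that passed, largest first, the 5 largest and 5 most negative, the core and isoform lists, and the 3 widest and the narrowest range per complex; other lists had up to 4 names. Genes outside this rule, such as those of the day 19 course, were named after their values were seen. Alternatives were another normalization, probe set rule, filter, variance model or set of arrays, and leaving out each replicate.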

Additional observations from a re-analysis of the deposited data

Results flagged for a closer look

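Among 149 series of 5 days (each member in the ko or the wt cultures), 21 had 1 day that stood apart from the other 4 by Dixon's criterion, or 14.1%, and 16 of them were on day 19 (10.7%). Over all genes the shares were 7.89% for any day and 1.30% for day 19. In series above the floor on all days, 15 of 139 member series stood apart (10.8%), 14 of them on day 19 (10.1%), against 3.34% and 0.966% over all genes. Chance gives about 1 in 20 for a single series, but the series are not independent, since the ko and wt arrays of a day deviate together. In the ko cultures the day 19 log2 signals that stood apart were 10.99 for Ndufa5, 12.79 for Ndufb11, 12.03 for Uqcr10, 13.02 for Cox6c, 12.07 for Cox8a and 12.33 for Atp5l, and in the wt cultures 12.97 for Ndufa4, 11.65 for Ndufb7, 12.02 for Sdhb, 12.15 for Uqcr10, 13.27 for Cox6b1, 12.10 for Cox8a, 12.85 for Atp5h and 12.41 for Atp5l, all above the other days. Uqcrq (5.72) and Cox8b (5.71) also stood apart in the ko culture on day 19, but only because the other days were at the floor. The other 5 were Cox7a1 in the ko culture on day 26 (6.47) and in the wt culture on day 22 (5.78), Cox7c in the wt culture on day 22 (6.18), Uqcrq in the wt culture on day 11 (5.74) and Ndufc1 in the wt culture on day 11 (11.94); of these only Ndufc1 was above the floor on all days.

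The 5 largest and 5 most negative members of either comparison were examined, 17 in all, and 5 moved one way in both OSK ko clones against the wt clone and the other way with both Tcf3 siRNAs against siCtrl. Such opposite moves were seen in 15 of 69 members above the floor on all arrays (21.7%) against 31.1% of all such genes. The OSK difference minus the siRNA difference was at least 0.71 for Cox7a1, which was at the floor with both siRNAs, 0.44 for Cox6b2, 0.41 for Ndufa6, 0.22 for Cox7a2l and -0.37 for Atp5mpl (log2). Each side rests on 1 array of its wt or siCtrl samples, and the difference between both effects was not tested.

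In data outside the comparisons, 3 probe sets annotated to a subunit gene together with its close copies had signals far above the floor. Their mean log2 signals over 18 arrays were 11.73 for Ndufb4b, Ndufb4c and Ndufb4, 11.35 for Ndufa11b and Ndufa11, and 11.41 for Ndufs6b and Ndufs6. The probe set annotated to Ndufb4 alone was at the floor on all 18 arrays.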

How the results depend on the processing

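The count of members that differed between the iPSC clones and the early cultures, 57, ranged from 57 to 60 when each array was left out and from 53 to 62 under the other 8 alternatives, which included leaving out the OSK clones (62, chosen after seeing the data); the median of 0.41 ranged from 0.39 to 0.46 without each array, was 0.30 with the mean of probe sets and 0.30 after median centring, and Ndufb8 turned to -0.35 with the mean of probe sets. Against the partial clone the 39 calls ranged from 33 to 39 without each array and from 31 to 41 otherwise; the median of 0.08 was 0.000334 after quantile normalization, 0.0137 after median centring and 0.06 to 0.13 without each array, and Sdha turned to -0.0014 with the mean of probe sets. The 5 calls of change per day became 10 (quantile), 3 (median centring), 1 (day means) and 0 to 11 without each day, and the median slope of 0.0066 became 0.013 (quantile), 0.0019 (median centring) and -0.0018 to 0.017 without each day, negative only without day 11. Between OCK ko and OSK ko clones the 0 calls became 2 (mean of probe sets), 1 (quantile) and 2 (median centring), counts not set beside the share of all genes called. The median of 0.022 became -0.014 (quantile), 0.068 (median centring) and 0.0051 to 0.028 without each clone. The siRNA median of 0.068 became 0.13 after median centring and 0.034 to 0.125 without either siRNA. The causes of these shifts were not tested. The ko and wt cultures gave 0 calls and a median of 0.0013 with and without the day as a replicate block, and the slope difference gave 0 calls with it. Clone numbers pair nothing (deviations of same-numbered OCK and OSK clones correlated at -0.17): the block gave 0 members and 142 genes, and the crossed numbers 0 members and 2 genes. The day 19 count of 40 was 36 to 44 under 3 alternatives chosen after seeing the data. Precision is set by how few arrays each group has, and dim probe sets (Cox7c, Cox7b2, Cox8b, Uqcrq, Ndufa12, Cox4i2) give little more than presence above the floor.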
